A study of Mus musculus with 60 samples.

Results

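Mouse cortex collected after 6 h of recovery sleep (RS6) was compared directly with cortex collected after 3 h of recovery sleep (RS3), both following 5 h of sleep deprivation. The comparison held 14 of the 60 arrays in the series, 7 RS3 and 7 RS6, chosen by their labels alone. All mice were individually housed C57BL/6J males, 2 months of age, without any genetic change, that had been handled daily before the experiment. RS3 mice were killed at Zeitgeber time (ZT) 8, that is 8 h after lights on, and RS6 mice at ZT 11. Sleep time and time of day therefore differed together between the groups. Undisturbed mice killed at ZT 8 (CC8) and at ZT 11 (CC11), 7 arrays each, gave the background of this 3 h time-of-day gap, and they share no array with RS3 and RS6. Mice killed at ZT 6, directly after 6 h of sleep deprivation (SD, 7 arrays), and their undisturbed controls (CC6, 7 arrays) were used for one later comparison. Wakefulness was maintained with a soft brush and sleep was not recorded by EEG, so the time asleep in each mouse is not known. Each array carried RNA of the left cortical hemisphere of 1 mouse.

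Sleep pressure builds up during wakefulness and is discharged during the sleep that follows, which early on is rich in slow-wave activity. In the cortex, long wakefulness is known to raise immediate early genes, such as the Egr and Fos families, which neurons switch on after synaptic activity, and chaperones of the endoplasmic reticulum (ER), which fold newly made secreted and membrane proteins. Clock genes of the Per, Cry and Bhlhe40 families follow the time of day and also respond to wakefulness, some of them through corticosterone, the stress hormone of mice.

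Of 41345 probesets, 32819 exceeded log2 4 on more than 50% of the arrays, and 19494 of these carry exactly 1 gene symbol. Markers of excitatory neurons had a mean log2 value between 9.31 and 9.42 in the RS3 arrays and between 9.19 and 9.47 in the RS6 arrays. Markers of the neighbouring striatum were also present and varied widely, with means from 8.02 to 9.68 in RS3 and from 8.00 to 9.60 in RS6. The highest striatum means were thus above the excitatory ones, and the cortex label was not tested by these lists. Replicate 1 of RS6 stood apart from the other recovery arrays on the first principal component of the deposited values (-42.7, against -3.65 to 16.1 for the other 13), as did replicate 1 of CC8 (-30.0). In bulk cortex, fewer cells of a type and less RNA per cell cannot be told apart.

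Direct differences between RS6 and RS3 were small. The 6 factors of unwanted variation (RUV) were entered as terms in the model. Subtracting them from the values first gave more probesets, as stated in the last section. In the model, 1 probeset passed the study's threshold, a false discovery rate (FDR) under 0.01, which is 0.00305% of those tested. This probeset (17350032) is annotated to several genes and is therefore given by its number. Its log2 values ran from 6.40 to 6.87 with a median of 6.66 in RS3, and from 5.58 to 6.35 with a median of 6.13 in RS6. Every RS6 array was below every RS3 array, and the difference was -0.61 (SE 0.09, 95% confidence interval -0.79 to -0.43, adjusted p = 0.000521 from limma). Values in CC8 and CC11 differed by -0.09. The same probeset had risen by 0.47 in SD relative to CC6 (adjusted p = 0.00106), was 0.52 higher in RS3 than in CC8 (adjusted p = 0.00118) and -0.00 from CC11 in RS6. Without RUV it was lower by the same order, at -0.66, but its adjusted p was 0.204.

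At an FDR under 0.05, a looser threshold, 41 probesets passed (0.125%), of which 20 were higher (0.0609%) and 21 lower (0.064%) in RS6. Their differences ranged in size from 0.16 to 0.82 on the log2 scale, and 10 of the 41 had RS3 and RS6 values that did not overlap, against 47 of all probesets tested (0.143%). A high share without overlap was built in, since the 41 were chosen on this same difference. Probesets 17513978 and 17513980 among them hold identical values. At an unadjusted p under 0.05 the count was 2962 (9.03%), 1409 higher (4.29%) and 1553 lower (4.73%). With the deposited values alone, that is without RUV, no probeset passed an FDR under 0.01 or 0.05 in limma, and 1234 (3.76%) had an unadjusted p under 0.05. Without replicate 1 of RS6, 25 of the 41 still passed. All 41 kept their sign without RUV, and 36 of them had an unadjusted p under 0.05 there. This too was largely built in, since the 41 were chosen on the same contrast in the same arrays. Counts at an FDR under 0.05 also depended on single mice. Leaving out an RS3 array gave 13 (replicate 1), 18 (replicate 2), 21 (replicate 3) or 27 (replicate 6), and leaving out an RS6 array gave 18 (replicate 3), 25 (replicate 6) or 19 (replicate 7). None of the named genes below passed an FDR under 0.01, so their values are given as measured differences.

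Undisturbed mice gave the background over the same hours. Between CC8 and CC11, 2 probesets passed an FDR under 0.01 (0.00609%) and 15 an FDR under 0.05 (0.0457%), with 3647 at an unadjusted p under 0.05 (11.1%). Of the 41 probesets above, 19 had the same sign in the controls, and 10 had an unadjusted p under 0.05 there (11.1% of all probesets tested). For the difference between the recovery and the control contrast, 35 had an unadjusted p under 0.05 (11.2% of all probesets tested). Because the 41 were chosen on RS6 minus RS3, which is a term of that difference, a high share there was built in. The plot of both contrasts shows the 41 on both sides of 0 in the undisturbed mice, with Sgk1 and Per1 close to the line of equal change.

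**Figure D1:**
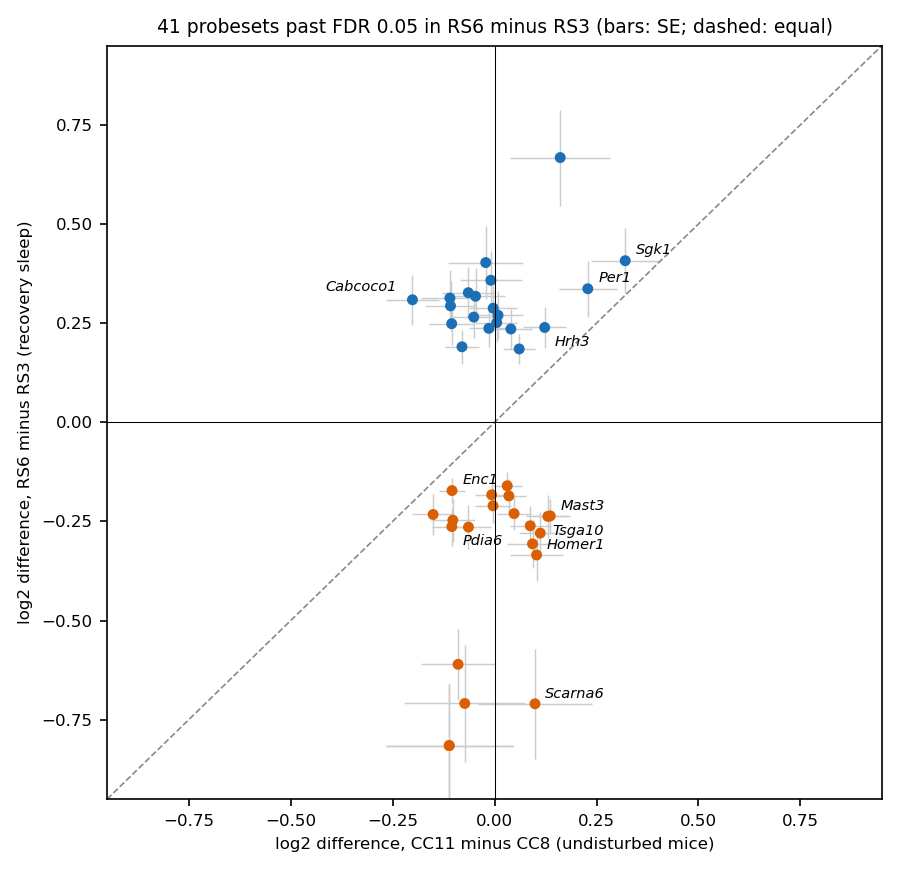
Difference between CC11 and CC8 (horizontal axis) and between RS6 and RS3 (vertical axis), both in log2 units after RUV, for the 41 probesets past an FDR under 0.05 in RS6 minus RS3; bars are standard errors, blue points are higher and orange points lower in RS6, and the dashed line marks equal differences. Homer1 is at -0.33 in recovery and 0.10 in the controls, whereas Sgk1 is at 0.41 and 0.32.

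Of 36 activity-regulated genes measured, 10 were lower after 6 h than after 3 h of recovery sleep at an unadjusted p under 0.05 and 0 were higher, where 4.73% of all probesets were lower and 4.29% higher. The median of the list was -0.09, against 0.00 in CC11 minus CC8, and Homer1 had the smallest adjusted p. Homer1 encodes a scaffold of the postsynaptic density whose short form, Homer1a, is induced by neuronal activity. Its log2 values were 9.65, 9.76 and 9.92 (lowest, median and highest) in RS3 and 9.09, 9.38 and 9.60 in RS6. All 7 RS6 arrays were below all 7 RS3 arrays. The difference was -0.33 (SE 0.06, adjusted p = 0.0132), a ratio of RS6 to RS3 of 0.793. In undisturbed mice Homer1 differed by 0.10 (adjusted p = 0.581), and the recovery difference minus the control difference was -0.44 (adjusted p = 0.0379). Homer1 had risen by 0.56 in SD (adjusted p = 1.7e-07). It was 0.25 above CC8 in RS3 (adjusted p = 0.0436) and at -0.18 from CC11 in RS6 (adjusted p = 0.173). Without replicate 1 of RS6 the difference was -0.31 (adjusted p = 0.043).

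Egr3, a transcription factor induced by calcium entry and MAPK signaling, ranged from 8.75 to 9.41 in RS3 (median 8.92) and from 8.28 to 9.02 in RS6 (median 8.67). These ranges overlapped, and the difference was -0.35 (SE 0.09, adjusted p = 0.117), compared with -0.01 in the undisturbed mice. Egr3 was above the time-matched controls in both groups, by 0.70 in RS3 (adjusted p = 9.24e-06) and by 0.36 in RS6 (adjusted p = 0.0479). Bdnf, the gene of brain-derived neurotrophic factor, had values of 6.18, 6.32 and 6.51 in RS3 and of 5.91, 6.16 and 6.34 in RS6. Its difference was -0.23 (SE 0.06, adjusted p = 0.114), and it was 0.40 above CC8 in RS3 (adjusted p = 0.000153) and 0.23 above CC11 in RS6 (adjusted p = 0.0506).

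The other list members at an unadjusted p under 0.05 came from several parts of the activity response. Inhba, a subunit of the growth factor activin, was at -0.41 (adjusted p = 0.146) and Pim1, a serine/threonine kinase, at -0.39 (adjusted p = 0.114). Inhba in replicate 1 of RS6 was the lowest of the 7, at 5.30 against a median of 6.92. Nptx2, a neuronal pentraxin that clusters AMPA receptors, differed by -0.26, but also by -0.20 in the undisturbed mice. The chromatin remodelling factor Baz1a was at -0.28, the Fos family member Fosl2 at -0.23, the prohormone convertase gene Pcsk1 at -0.17 and the secreted neuropeptide precursor Vgf at -0.16.

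No difference was detected for several immediate early genes. Arc, which encodes a cytoskeletal protein involved in AMPA receptor endocytosis, had values of 7.69, 8.05 and 9.07 in RS3 and of 7.75, 8.09 and 8.94 in RS6. The ranges overlapped almost fully, and the difference was 0.01 with a 95% confidence interval from -0.48 to 0.49. Neither was one detected for Egr1 (-0.14, interval -0.39 to 0.12), Egr2 (-0.03, interval -0.36 to 0.30) and Nr4a1 (0.10, interval -0.26 to 0.46). All 4 genes had risen in SD, by 1.47 for Arc (adjusted p = 0.00013), 0.86 for Egr1, 0.85 for Egr2 and 0.90 for Nr4a1. In both RS3 and RS6 they lay at or below their own controls, from -0.30 to -0.01 in RS3 and from -0.39 to -0.23 in RS6, with no adjusted p under 0.05.

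Of 24 ER chaperone and unfolded protein response genes measured, 6 were lower in RS6 at an unadjusted p under 0.05 and 0 higher. Over all probesets 4.73% were lower and 4.29% higher. The median of the list was -0.07, against -0.01 in the controls. Without RUV 3 of the 24 were lower, where 1.89% of all probesets were. Pdia6, a protein disulfide isomerase that forms disulfide bonds in the ER, had log2 values of 9.88, 10.02 and 10.22 in RS3 and of 9.64, 9.76 and 9.96 in RS6. Replicate 1 of RS6 held the highest of the RS6 values, and it was this array alone that overlapped the RS3 range. The difference was -0.26 (SE 0.05, adjusted p = 0.0107), a ratio of 0.833. Without that array it was -0.29 (adjusted p = 0.00733). Undisturbed mice showed a smaller difference in the same direction, -0.10 (adjusted p = 0.419), and the test between both contrasts gave -0.16 (adjusted p = 0.375). Pdia6 had risen by 0.35 in SD (adjusted p = 7.5e-06), was at 0.18 in RS3 relative to CC8 and at 0.02 in RS6 relative to CC11.

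Hspa5, the abundant ER chaperone also known as BiP, had values of 9.40, 9.54 and 9.69 in RS3 and of 9.30, 9.38 and 9.46 in RS6. The ranges overlapped at their edges, with a difference of -0.17 (SE 0.06, adjusted p = 0.274). Hyou1, which releases ADP from Hspa5, was at -0.17 (adjusted p = 0.186), and Sdf2l1, a partner of the ER Hsp40 co-chaperones, at -0.24 (adjusted p = 0.231). Dnajc3 was at -0.11 and Calr at -0.09, whereas Hsp90b1, the ER member of the Hsp90 family, differed by -0.06 (adjusted p = 0.624) and was above its controls by 0.22 in RS3 (adjusted p = 0.000769) and by 0.20 in RS6 (adjusted p = 0.00358).

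The ER stress response element (ERSE), bound by the transcription factors NF-Y and ATF6, has the letters CCAAT and CCACG with 9 free bases between them. It was searched on both strands in the 250 bases before the start of each gene (RefSeq, build GRCm38.p6). It was present in 8 of the 21 ER genes with a promoter in the table (38.1%), and in 35 of 27025 genes overall (0.13%). The ratio of RS6 to RS3 was 0.833 for Pdia6, 0.89 for Hspa5, 0.923 for Dnajc3, 0.942 for Calr and Creld2 and 0.956 for Hsp90b1. It was 1.02 for Canx and Syvn1, which also hold the element. The promoters of Pdia6 and Hspa5 are shown because these genes are the ER members with the smallest p and with the best known role. The element is in capitals, beginning 98 bases before the start in Pdia6 (chr12:17266339-17266588, + strand) and 65 bases before it in Hspa5 (chr2:34771840-34772089, + strand). A match describes the letters only, and binding was not measured.
Pdia6: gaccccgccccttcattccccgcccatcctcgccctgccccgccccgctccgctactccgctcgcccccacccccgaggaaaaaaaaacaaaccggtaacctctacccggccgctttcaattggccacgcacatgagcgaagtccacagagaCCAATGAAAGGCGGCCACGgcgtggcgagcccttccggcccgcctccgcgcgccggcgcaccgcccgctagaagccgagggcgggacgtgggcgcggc
Hspa5: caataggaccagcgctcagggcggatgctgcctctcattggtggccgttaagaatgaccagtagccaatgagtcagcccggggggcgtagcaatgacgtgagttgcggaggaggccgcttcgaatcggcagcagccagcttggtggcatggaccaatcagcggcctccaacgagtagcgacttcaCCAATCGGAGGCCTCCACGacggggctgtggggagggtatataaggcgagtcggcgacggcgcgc

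Cytosolic and mitochondrial heat shock genes were counted beside them. Of 18 measured, 5 were lower at an unadjusted p under 0.05 and 0 higher, where 4.73% of all probesets were lower and 4.29% higher. Over the whole list 11 had a negative and 7 a positive difference, with a median of -0.03 against -0.00 in the controls. Hspa1b, an inducible cytosolic Hsp70, was at -0.27 (adjusted p = 0.369) and the small heat shock protein gene Hspb1 at -0.18 (adjusted p = 0.475). Other members differed little, with ratios of RS6 to RS3 of 0.987 for Hspa1a, 0.982 for Hspa8 and 1.01 for Hsp90aa1. The mitochondrial chaperonin pair Hspd1 and Hspe1 was at -0.11 for each, as was the co-chaperone gene Dnajb4.

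**Figure D2:**
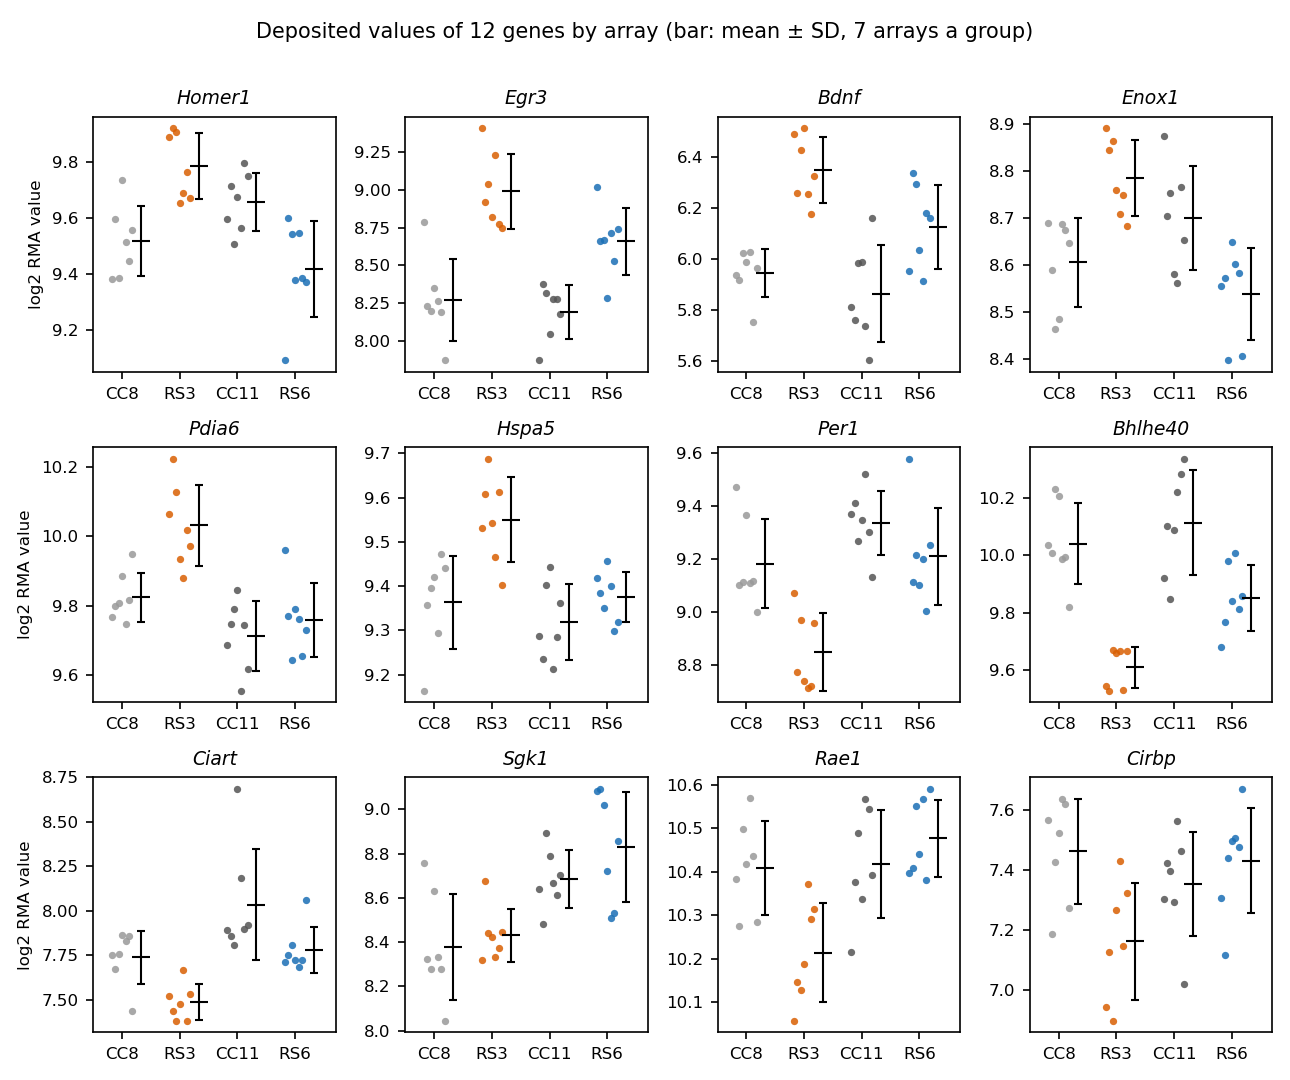
Deposited log2 value of 12 genes in each array (points) of CC8, RS3, CC11 and RS6, with the mean and SD of 7 arrays beside them; vertical scales differ between panels. The RS3 and RS6 points of Homer1, Enox1, Bhlhe40, Ciart and Rae1 do not overlap, and the highest RS6 point of Pdia6 (9.96) and of Per1 (9.58) is replicate 1.

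Of 18 clock and clock output genes measured, 5 were higher and 1 lower at an unadjusted p under 0.05. Of all probesets 4.29% were higher and 4.73% lower. The median of the list was 0.07 in the recovery mice and 0.05 in the undisturbed mice. Per1, a repressor of the clock that also responds to glucocorticoids and to neuronal activity, had values of 8.71, 8.77 and 9.07 in RS3 and of 9.004, 9.20 and 9.58 in RS6. Only the edges of the ranges overlapped. The difference was 0.34 (SE 0.07, adjusted p = 0.0253), a ratio of 1.26. It was 0.23 in undisturbed mice (adjusted p = 0.191), and the difference between both contrasts, 0.11, was not detected (adjusted p = 0.75). Per1 was at -0.33 from CC8 in RS3 (adjusted p = 0.0114) and at -0.22 from CC11 in RS6 (adjusted p = 0.112), although SD had raised it by 0.40 (adjusted p = 0.000352).

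Ciart, a repressor of CLOCK and BMAL1, behaved likewise. Its values of 7.38 to 7.67 in RS3 (median 7.48) lay below the 7.69 to 8.06 in RS6 (median 7.73), with a difference of 0.29 (adjusted p = 0.356) beside 0.31 in the controls. Arntl, the gene of BMAL1 itself, was lower by the same amount in both contrasts, at -0.12 in RS6 minus RS3 (adjusted p = 0.376) and at -0.12 in CC11 minus CC8. The clock output factor Dbp was at 0.22 (adjusted p = 0.346) and Per3 at 0.13 (adjusted p = 0.393), with 0.14 and 0.24 in the controls. Bhlhe40, a repressor that competes at E-boxes, had values of 9.53, 9.66 and 9.67 in RS3 and of 9.68, 9.84 and 10.01 in RS6, without overlap. The difference was 0.23 (SE 0.06, adjusted p = 0.1), compared with 0.06 in the controls, and the test between both contrasts gave 0.17 (adjusted p = 0.461). It was at -0.41 from CC8 in RS3 (adjusted p = 8.03e-05) and at -0.24 from CC11 in RS6 (adjusted p = 0.0383), after a rise of 0.51 in SD.

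CLOCK and BMAL1 bind the E-box CACGTG. Read on both strands of the same 250 bases, it was present in 5 of the 17 clock genes with a promoter in the table (29.4%) and in 1854 of 27025 genes (6.86%), but also in 6 of 25 activity-regulated genes (24%). Per1 (chr11:69098699-69098948, + strand) and Ciart (chr3:95882229-95882478, - strand) are shown because they hold it and were among the 5 higher clock genes, with the E-boxes in capitals. Per1 has 1 copy, 166 bases before the start, and Ciart has 3, at 116, 58 and 44 bases.
Per1: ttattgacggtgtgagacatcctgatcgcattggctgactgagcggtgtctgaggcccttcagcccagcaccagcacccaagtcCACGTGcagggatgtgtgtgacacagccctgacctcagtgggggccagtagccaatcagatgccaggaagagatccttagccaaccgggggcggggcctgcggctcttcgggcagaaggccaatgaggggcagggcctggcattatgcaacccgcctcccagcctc
Ciart: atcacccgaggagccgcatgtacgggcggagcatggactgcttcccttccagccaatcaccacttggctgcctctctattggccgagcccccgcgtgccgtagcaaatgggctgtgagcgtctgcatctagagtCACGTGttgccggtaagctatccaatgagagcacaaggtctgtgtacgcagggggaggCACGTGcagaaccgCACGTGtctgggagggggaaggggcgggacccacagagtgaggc

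Of 23 glucocorticoid-responsive genes measured, 9 were higher in RS6 and 0 lower at an unadjusted p under 0.05. Over all probesets 4.29% were higher and 4.73% lower. Of the 9, 2 passed an FDR under 0.05, as did 0.0609% of all probesets in this direction. The median of the list was 0.12 in the recovery mice and 0.09 in the controls. Over the whole list 17 had a positive and 6 a negative difference. Without RUV 6 were higher at an unadjusted p under 0.05, where 1.87% of all probesets were. Sgk1, a kinase that regulates ion channels and is induced by corticosterone, had values of 8.32, 8.42 and 8.68 in RS3 and of 8.51, 8.86 and 9.09 in RS6. The ranges overlapped through replicate 2 of RS3, whose 8.68 stood above the 8.32 to 8.45 of the other 6. The difference was 0.41 (SE 0.08, adjusted p = 0.0196), a ratio of 1.33, beside 0.32 in the undisturbed mice (adjusted p = 0.11). The difference between both contrasts was 0.09 (adjusted p = 0.846), and without replicate 1 of RS6 the adjusted p was 0.0593.

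Nfkbia, the inhibitor of NF-kappaB, was at 0.23 in recovery and 0.21 in the controls, and Errfi1, a feedback inhibitor of the EGF receptor, at 0.17 and 0.14. Fmo2, a flavin-containing monooxygenase gene, differed by 0.28 in recovery and by 0.56 in the controls. Ddit4, an inhibitor of mTOR signaling, was at 0.31 in RS6 minus RS3 (adjusted p = 0.217) and at -0.01 in CC11 minus CC8, and the test between both contrasts gave 0.32 (adjusted p = 0.34). The glucocorticoid response element, searched in the same way as AGAACA and TGTTCT with 3 free bases between them, was present in 1 of 21 promoters of this list (4.76%), that of Sgk1, and in 3 of 27025 genes (0.0111%). The Sgk1 promoter (chr10:21993640-21993889, + strand) is shown for this element, in capitals, which begins 189 bases before the start.
Sgk1: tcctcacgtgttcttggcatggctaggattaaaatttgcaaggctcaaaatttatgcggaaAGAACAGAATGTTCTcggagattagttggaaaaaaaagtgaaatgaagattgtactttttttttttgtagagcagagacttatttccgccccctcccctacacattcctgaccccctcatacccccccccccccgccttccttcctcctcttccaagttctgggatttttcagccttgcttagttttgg

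**Figure D3:**
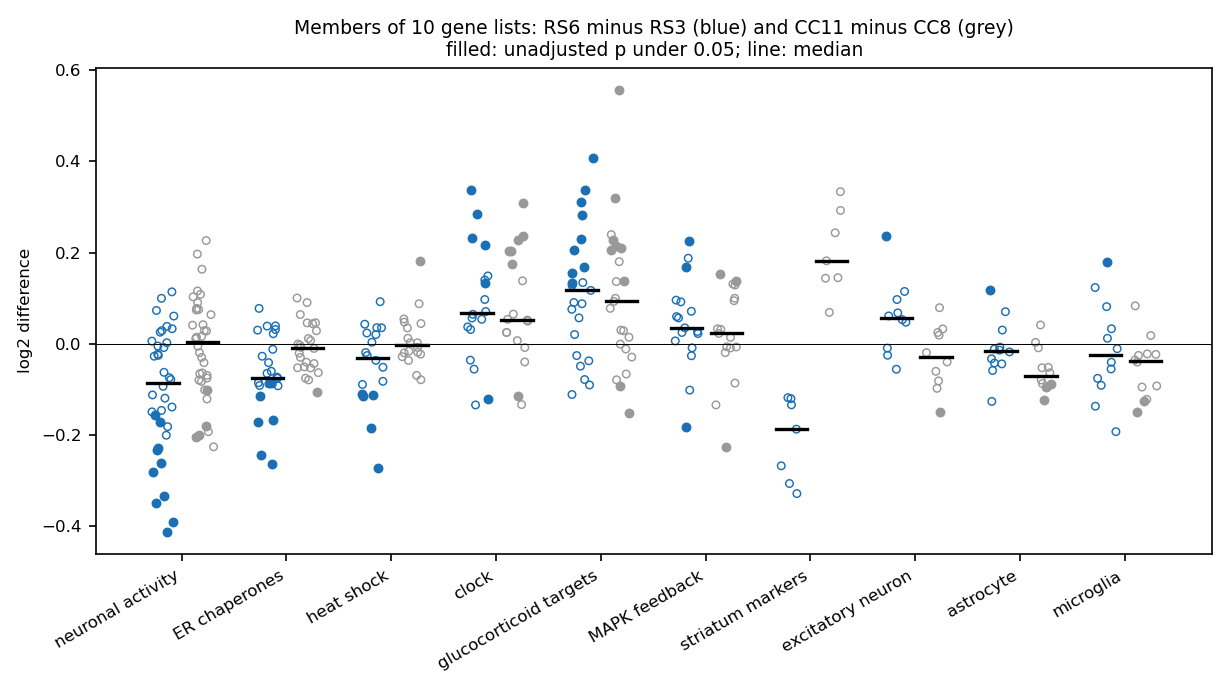
Log2 difference of each measured member of 10 gene lists in RS6 minus RS3 (blue) and CC11 minus CC8 (grey), after RUV; filled points have an unadjusted p under 0.05 and the bar is the median of the list. Filled blue points lie below 0 for neuronal activity, ER chaperones and heat shock, and above 0 for glucocorticoid targets, where the grey median is 0.09.

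Among the other genes lower in RS6, Enox1, a cell surface NADH oxidase, had values of 8.68, 8.76 and 8.89 in RS3 and of 8.40, 8.57 and 8.65 in RS6. The groups did not overlap, and the difference was -0.23 (SE 0.04, adjusted p = 0.0107), with 0.05 in the controls. Enc1, an actin-associated Kelch protein of neurons, was at -0.17 (SE 0.03, adjusted p = 0.0107) and at -0.10 in the controls (adjusted p = 0.191). Both genes had risen in SD, by 0.27 each (adjusted p = 3.88e-05 for Enox1 and 3.8e-07 for Enc1). Iqgap2, a scaffold of small GTPases and actin, was at -0.31 (adjusted p = 0.0172) after a rise of 0.51 in SD (adjusted p = 4.99e-07). Myh9, a nonmuscle myosin heavy chain, was at -0.26 (adjusted p = 0.0269).

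Among inhibitors and kinases, Spred1, which restrains Ras-ERK signaling, had values of 10.36, 10.47 and 10.72 in RS3 and of 10.14, 10.30 and 10.46 in RS6. Its difference was -0.18 (SE 0.04, adjusted p = 0.0481), beside -0.01 in the controls and a rise of 0.22 in SD (adjusted p = 0.00106). It was the only one of the 17 phosphatases and feedback inhibitors of MAPK signaling that was lower at an unadjusted p under 0.05. Of the 17, 2 were higher, and over all probesets 4.73% were lower and 4.29% higher. Dusp5, a nuclear ERK phosphatase, was at 0.23 (adjusted p = 0.453). The kinase gene Mast3 was at -0.24 (adjusted p = 0.0481) and Camk1, a calcium/calmodulin-dependent kinase, at -0.20 (adjusted p = 0.0503). The Wnt enhancer Rspo2 was at -0.23 (adjusted p = 0.0364) with -0.15 in the controls, and replicate 1 of RS6, at 7.53, stood below the 8.21 to 8.34 of the other 6. The unnamed cDNA gene 2210408F21Rik was at -0.19 (adjusted p = 0.045).

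Tsga10, named for its expression in testis and known from the sperm tail, had values of 6.87, 6.93 and 7.09 in RS3 and of 6.30, 6.67 and 6.87 in RS6, without overlap. It differed by -0.28 (SE 0.05, adjusted p = 0.0107) and by 0.11 in the controls. Wdr78, an axonemal dynein subunit, was at -0.26 (adjusted p = 0.0107; 0.00733 without replicate 1 of RS6) and Dync2h1, the motor that returns cargo from the tip of the cilium, at -0.16 (adjusted p = 0.0364). Dync2h1 was 7.68 in replicate 1 of RS6 and 8.22 to 8.33 in the other 6, and without this array its difference was -0.13 (adjusted p = 0.185). Since these are ciliary genes, markers of ependymal cells, the ciliated lining of the ventricles, were examined after the values had been seen. Of 16 measured, 5 were lower at an unadjusted p under 0.05 and 0 higher, where 4.73% of all probesets were lower and 4.29% higher. The median was -0.06. The ciliary transcription factor gene Rfx3 was at -0.20 (adjusted p = 0.126) and the axonemal gene Spag16 at -0.25 (adjusted p = 0.188). The summed level of the list, as the mean log2 value, ranged from 5.44 to 5.58 in RS3 and from 5.33 to 5.53 in RS6, and the part of ependymal tissue in the ciliary genes was not tested. Of 20 genes of ciliary assembly and transport, also listed after the values were seen, 4 were lower and 3 higher. This list includes Dync2h1, whose value had already been seen, so the counts are not independent of it.

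Scarna6, a small Cajal body RNA that guides modification of spliceosomal RNA, had values of 8.76, 8.94 and 9.26 in RS3 and of 7.77, 8.01 and 10.16 in RS6. Replicate 1 of RS6 was the 10.16, and the other 6 RS6 arrays, up to 8.37, were below every RS3 array. The difference was -0.71 (SE 0.14, adjusted p = 0.0149), and -0.84 without this array (adjusted p = 0.00474), whereas with the deposited values alone it was -0.60 (adjusted p = 1). Of 78 small nucleolar and Cajal body RNAs, 10 were lower and 1 higher at an unadjusted p under 0.05. Over all probesets 4.73% were lower and 4.29% higher. The median of the list was -0.05. The mean over the list was 8.65 in replicate 1 of RS6 and from 7.75 to 7.99 in the other 6. Without that array 14 were lower (4.7% of all probesets), and without RUV none was (1.89% of all probesets), while without RUV and without 5 arrays that stand apart (RS6 replicate 1, CC8 replicate 1, CC0 replicate 1 and SD replicates 1 and 2) 16 were lower (4.19% of all probesets).

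Among the other genes higher in RS6, Rae1, an mRNA export factor, had values of 10.06, 10.19 and 10.37 in RS3 and of 10.38, 10.44 and 10.59 in RS6. The groups did not overlap, and the difference was 0.25 (SE 0.05, adjusted p = 0.0126), against 0.01 in the controls. Hrh3, the presynaptic histamine receptor that curbs the release of this wake-promoting transmitter, ranged from 9.30 to 9.45 in RS3 (median 9.40) and from 9.48 to 9.89 in RS6 (median 9.61), again without overlap. Its difference was 0.24 (SE 0.05, adjusted p = 0.0364; 0.0963 without replicate 1 of RS6), with 0.12 in the controls (adjusted p = 0.365). A second probeset of Hrh3 was at 0.07 (SE 0.11, adjusted p = 0.908), without a detected difference. Hrh3 was at -0.27 from CC8 in RS3 (adjusted p = 0.00403) and at -0.16 from CC11 in RS6 (adjusted p = 0.142).

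Cox6a2, a subunit of cytochrome c oxidase, had values of 6.42, 6.62 and 6.81 in RS3 and of 6.78, 6.91 and 7.11 in RS6, with a difference of 0.33 (SE 0.06, adjusted p = 0.0172) and -0.06 in the controls. Slc25a33, a mitochondrial pyrimidine nucleotide carrier, was at 0.19 (adjusted p = 0.0419), Slc37a1, a glucose 6-phosphate transporter of the ER, at 0.31 (adjusted p = 0.0419), and Mfsd4a, a membrane transporter of the major facilitator family, at 0.25 (adjusted p = 0.0364). A second probeset of Mfsd4a was at -0.10.

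Several of the higher genes had been lowered by sleep deprivation. Zfp804b, a zinc finger protein gene, was at 0.36 (adjusted p = 0.0245) after a fall in SD (-0.45, adjusted p = 0.000129), and Mfsd4a had fallen in SD as well (-0.37, adjusted p = 1.57e-05). The microtubule-associated gene Nav3 and the transmembrane gene Tmem132d were at 0.18 (adjusted p = 0.0236) and 0.24 (adjusted p = 0.0364), with -0.23 (adjusted p = 0.000156) and -0.25 (adjusted p = 0.00246) in SD. Cirbp, the cold-inducible RNA-binding protein gene, had values of 6.90, 7.15 and 7.43 in RS3 and of 7.12, 7.48 and 7.67 in RS6. These overlapped, and the difference was 0.28 (SE 0.09, adjusted p = 0.244), with -0.12 in the controls and -0.37 in SD (adjusted p = 0.00987). Rtl8c, derived from a retrotransposon Gag gene, was at 0.24 without overlap (adjusted p = 0.0186), and was at -0.00 in SD. The uncharacterised genes Gm4285 and A630066F11Rik were at 0.27 (adjusted p = 0.0196) and 0.29 (adjusted p = 0.0308).

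Cabcoco1, which encodes a calcium-binding ciliary coiled-coil protein, moved in opposite directions in recovery and undisturbed mice. It had values of 6.82, 7.08 and 7.32 in RS3 and of 6.92, 7.37 and 7.60 in RS6. The ranges overlapped, with a difference of 0.31 (SE 0.06, adjusted p = 0.0217) against -0.20 in the controls (adjusted p = 0.203), and the contrasts differed by 0.51 (adjusted p = 0.011). In RS3 it was at -0.68 from CC8 (adjusted p = 1.29e-09), and in RS6 at -0.17 from CC11 (adjusted p = 0.206).

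Across all probesets, the difference between the recovery and the control contrast passed an FDR under 0.01 for 1 (0.00305%) and an FDR under 0.05 for 36 (0.11%). The 1 is probeset 17355248, which has no symbol in the platform annotation. It ranged from 8.26 to 8.42 in RS3 (median 8.32) and from 7.59 to 8.26 in RS6 (median 8.10), and differed by -0.24 in recovery and by 0.14 in the controls (-0.37 between both, adjusted p = 0.00726). Among the named genes, Cdk3, of the cyclin-dependent kinase family, had the widest gap. It was at -0.50 in RS6 minus RS3 and 0.52 in CC11 minus CC8 (-1.03 between both, adjusted p = 0.0194). Hook3, a dynein adaptor, differed by -0.15 and 0.12 (-0.27 between both, adjusted p = 0.0194), and the predicted gene Gm6745 by -0.18 and 0.25 (adjusted p = 0.0197). In the other direction were Arhgap25, a Rac GTPase-activating protein (0.25 and -0.31, adjusted p = 0.011), the intraflagellar transport gene Ift52 (0.19 and -0.19, adjusted p = 0.0197), the RNA-binding gene Tsn (0.18 and -0.13, adjusted p = 0.0361) and Lhfp, of the tetraspan lipoma HMGIC fusion partner family (0.10 and -0.26, adjusted p = 0.0379). Replicate 1 of RS6 was the lowest of its group, and far from the other 6, for Hook3 (8.98), Tsn (9.25) and Lhfp (7.49). Without it their adjusted p was 0.0303, 0.045 and 0.0303.

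Probesets changed by sleep deprivation itself were then followed as a set. SD and CC6 share no array with RS3 and RS6, although the RUV factors were estimated over all of them, and the SD mice had been deprived for 6 h instead of 5 h. In SD, 634 probesets passed an FDR under 0.01 (1.93%), 357 raised and 277 lowered. Of the raised ones, 68.1% were lower in RS6 than in RS3, against 50.3% of all probesets, and 45.1% were lower in CC11 than in CC8 (49.9% of all probesets). At an unadjusted p under 0.05, 94 of the 357 (26.3%) were lower and 15 were higher. Of the lowered ones, 23.8% were lower in RS6, against 65.7% in the control contrast, and 72 of the 277 (26.0%) were higher at an unadjusted p under 0.05. The size was modest, with medians of -0.05 for the raised and 0.05 for the lowered probesets. A line through 0 had a slope of -0.15 against the SD difference in RS6 minus RS3 and of 0.05 in CC11 minus CC8. Without RUV, over the 423 probesets then called in SD, the slopes were -0.06 and -0.04.

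This split depended on the treatment of unwanted variation. Without RUV, and with the lists called anew, 57.4% of the raised probesets were lower in RS6 and 58.2% were lower in CC11. With the 5 arrays that stand apart left out as well, these shares were 70.7% and 44.1%.

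**Figure D4:**
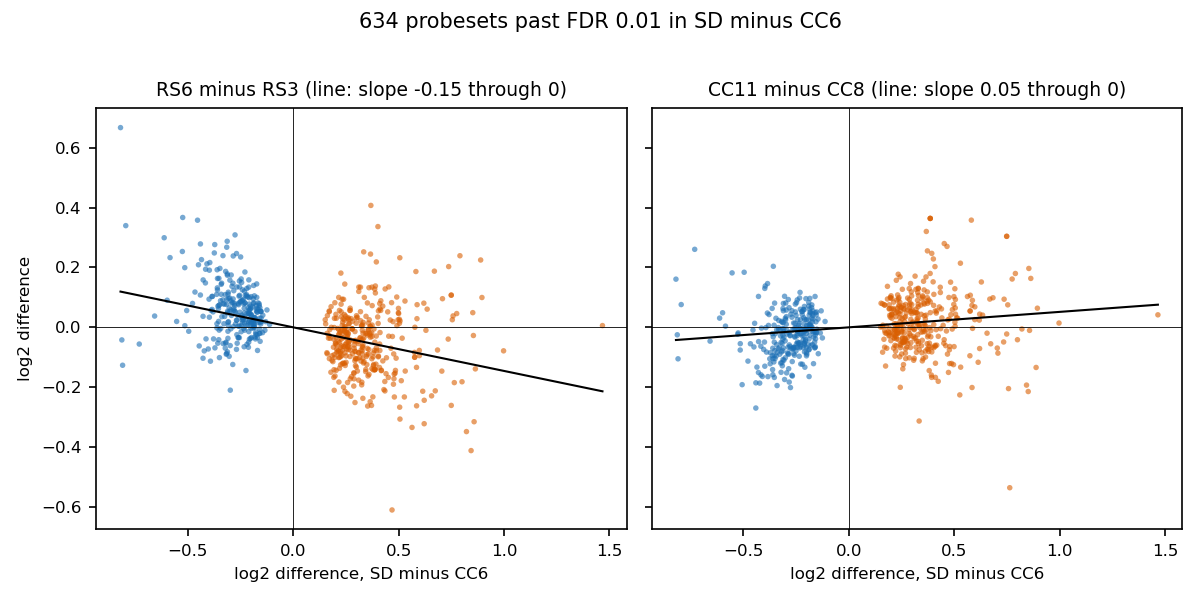
Log2 difference in RS6 minus RS3 (left) and CC11 minus CC8 (right) against the difference in SD minus CC6 for the 634 probesets past an FDR under 0.01 in SD, after RUV; orange points were raised and blue points lowered by sleep deprivation, and lines pass through 0. The slope is -0.15 on the left and 0.05 on the right, and -0.06 and -0.04 without RUV (not drawn).

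The study's 7 positive controls for recovery sleep, assembled from the literature, included 5 that were lower in RS6 at an unadjusted p under 0.05 (Bdnf, Egr3, Nptx2, Hspa5 and Fosl2, all given above). The other members were Hsp90b1 at -0.06 and the AP-1 gene Junb at 0.11 (adjusted p = 0.877), and the median was -0.23 against -0.05 in the controls. Of its 31 measured positive controls for sleep deprivation, 11 were lower and 5 higher, where 4.73% of all probesets were lower and 4.29% higher. Among 17 genes that the study names, 4 were lower and 4 higher. Those not described above include Hdac9, a class IIa histone deacetylase, at 0.15 (adjusted p = 0.137), the synaptic adhesion gene Nlgn1 at 0.06 (adjusted p = 0.67), the corepressor gene Sin3a at 0.03 (adjusted p = 0.864), Npas2, a partner of BMAL1, at -0.04 (adjusted p = 0.842), Fosb at -0.18 (adjusted p = 0.624) and the nuclear RNA Neat1 at -0.06 (adjusted p = 0.875). Replicate 1 of RS6 was far below the other 6 for Hdac9 (8.09) and Neat1 (7.05), and without it Hdac9 was at 0.19 (adjusted p = 0.0421) and Neat1 at 8.2e-05. The study also grouped probesets into clusters from these same mice. Of its first, 100 of 339 were lower and 6 higher, and of its second 79 of 310 were higher and 7 lower, which is no independent evidence of a direction.

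Other gene groups were counted in the same way, at an unadjusted p under 0.05, where 4.29% of all probesets were higher and 4.73% lower. Of 31 monoamine, histamine and acetylcholine receptors 3 were higher and 1 lower, of 20 neuropeptide and granin genes 2 and 2, and of 26 genes of glucose and lactate handling 4 and 1. Adcyap1, which encodes the neuropeptide PACAP, was at 0.20 (adjusted p = 0.321), and Chrm2, the muscarinic M2 receptor, at -0.16 (adjusted p = 0.323). Of 20 cholesterol synthesis genes 2 were higher and 1 lower, of 62 cytosolic ribosomal proteins 1 and 1, of 63 translation factors 4 and 2, of 52 ubiquitin-specific proteases 3 and 1, and of 350 microRNA precursors 15 and 19. Of 15 splicing regulators 2 were lower and 0 higher, with Tra2a at -0.18 (adjusted p = 0.349).

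Cell type markers were counted at an unadjusted p under 0.05, at which 9.03% of all probesets differed. Of them, 1 of 10 excitatory neuron markers, 1 of 12 inhibitory neuron markers, 1 of 12 astrocyte markers and 1 of 12 microglia markers were higher, 1 of 10 oligodendrocyte markers was lower, and of 8 markers of oligodendrocyte precursors none was either. Of 11 endothelial markers 2 were higher, one of them the glucose transporter gene Slc2a1 (0.18, adjusted p = 0.0918; 0.16 in the controls), and 1 was lower. All 7 measured striatum markers had a negative difference (median -0.19, against 0.18 in the controls), with none at an unadjusted p under 0.05. With the striatum marker mean added to the model, 28 probesets passed an FDR under 0.05 in place of 41.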

How the data were processed

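Gene expression was measured on Affymetrix Mouse Gene 2.1 ST arrays, and the deposited series table holds log2 values that the authors summarised by RMA, a method that corrects background, normalizes by quantiles and fits 1 value per probeset. The software version is not given in the sources used here. Of 60 arrays, 59 were assigned to 9 groups by their labels, and 1 array whose title and description disagree was left out. The filter kept probesets exceeding log2 4 on more than 50% of the arrays. Factors of unwanted variation were estimated from the differences between arrays of the same group (the RUVs procedure, 6 factors, all kept probesets as controls) and entered as terms, with group, into a linear model in limma 3.58.1 (R 4.3.3) over the 59 arrays. Contrasts were RS6 minus RS3, CC11 minus CC8, the difference of both, and SD minus CC6, and p-values were adjusted over all 32819 probesets (Benjamini-Hochberg). RS3 minus CC8 and RS6 minus CC11 share arrays with RS6 minus RS3 and are given side by side only.

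Gene symbols came from the platform annotation. The code was tested on simulated data. Named genes were those past an FDR under 0.01 and, since none with 1 symbol passed, the 15 in each direction with the smallest p in RS6 minus RS3, likewise the 5 in each direction for the difference of both contrasts, and the genes that the study names or uses as controls for recovery sleep. Further list members are named as examples of their lists. Probesets with several or no symbols are given by number. Some genes stand in more than 1 list (Per1 in the clock and glucocorticoid lists, Errfi1 in the glucocorticoid and MAPK lists). The members and gene lists were chosen with earlier results of these data known. Each array is 1 mouse, and the number of arrays limits the precision (median SE 0.0847). Promoter sequences are from RefSeq.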

Additional observations from a re-analysis of the deposited data

Results flagged for a closer look

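Of 120 sets of 7 values examined, 17 held 1 array far from the other 6, where chance gives about 1 in 20, and 12 of the 17 were replicate 1 of RS6. This array was high for Per1 (9.58, others 9.004 to 9.25), Scarna6 (10.16, others 7.77 to 8.37), Junb (7.83, others 6.82 to 7.15) and the mean of the small nucleolar RNA list (8.65, others 7.75 to 7.99). It was low for Tsga10 (6.30, others 6.63 to 6.87), Rspo2 (7.53, others 8.21 to 8.34), Dync2h1 (7.68, others 8.22 to 8.33) and Tsn (9.25, others 9.53 to 9.70). It was also low for Lhfp (7.49, others 7.94 to 8.13), Hook3 (8.98, others 9.35 to 9.51), Neat1 (7.05, others 7.81 to 8.29) and Hdac9 (8.09, others 8.56 to 8.66). Replicate 1 of RS3 was low for A630066F11Rik (6.13, others 6.35 to 6.50) and Ift52 (7.40, others 7.67 to 7.84), and high for Fosl2 (8.12, others 7.48 to 7.68) and Junb (7.57, others 6.62 to 6.96). Replicate 2 of RS3 was high for Sgk1 (8.68, others 8.32 to 8.45).

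Probeset 17355248 differed between the contrasts, with -0.24 in RS6 minus RS3 and 0.14 in CC11 minus CC8 (-0.37 between both, adjusted p = 0.00726 from limma).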

How the results depend on the processing

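The 41 probesets at an FDR under 0.05 kept their sign in each setting that tested them (37 of them with a log2 minimum of 6). This was largely built in, since they were chosen on the same contrast in the same arrays. At an FDR under 0.01, the counts for RS6 minus RS3, CC11 minus CC8 and their difference were 1, 2 and 1. These counts changed with most settings. They were 0, 0 and 0 without RUV, also with the replicate block and with only the groups compared, with or without the block. They were 0, 1 and 0 with 3 RUV factors, 4, 6 and 7 with 9, and 33, 15 and 35 when 6 factors were subtracted first. No filter gave 1, 1 and 0, a log2 minimum of 6 gave 22, 3 and 2, array weights 15, 0 and 0, an intensity trend 16, 4 and 4, a second quantile normalization 1, 3 and 1, and the striatum term 1, 1 and 2. An FDR under 0.05 gave 41, 15 and 36. Without the 5 arrays that stand apart they were 3, 2 and 0, and without RUV as well 1, 2 and 0. The last, the removal of RS6 replicate 1 with CC8 replicate 1 (3, 3 and 1) and the repeats of the sleep deprivation shares were chosen after seeing the data. Leaving out 1 array gave 1 to 7 for RS6 minus RS3 (7 without RS3 replicate 5 or RS6 replicate 1), 0 to 11 for CC11 minus CC8 (11 without CC11 replicate 3) and 0 to 5 for the difference. The cause was not tested.

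The count of 41 at an FDR under 0.05 was 0 without RUV (with or without the block, and in the groups compared alone), 15 with 3 factors, 64 with 9, 151 with factors subtracted, 74 with a log2 minimum of 6, 83 with array weights, 24 without the 5 arrays, 8 without these and RUV, 24 without RS6 replicate 1 and CC8 replicate 1, and 13 to 50 without 1 array.

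Replicate numbers are shared across groups, and the paper states that 1 animal per time point was obtained on each experimental day. Correlations between the deviations of same-numbered RS3 and RS6 arrays were all above 0 but weak (0.00781 to 0.143). They exceeded 0.1 in 1 of 7 pairs, and 3 of 7 were best with their own number. In CC8 and CC11 they ran from -0.0432 to 0.093 (0 of 7 over 0.1, 1 of 7 best). The main model did not take them as pairs, and whether the numbers mark the day was not tested. With the replicate block the counts at an FDR under 0.01 were 21, 1 and 9, and 76 at an FDR under 0.05 for RS6 minus RS3. With the replicate block and no RUV, 51.8% of the probesets raised by sleep deprivation were lower in RS6 and 65.6% in CC11, and 44.0% and 33.5% of those lowered. Without RUV alone these shares were 57.4% and 58.2%, and 38.5% and 41.3%. Leaving out 1 array gave 63.8% to 71.8% of the raised and 22.8% to 27.5% of the lowered ones in RS6.

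Of 1997 repeats of 60 named differences, 21 turned sign, all of them in genes without a detected difference. Arc was at -0.0232 with 3 factors, -0.00252 with the replicate block, -0.078 without RUV and the 5 arrays, and -0.0767 to 0.124 without 1 array. Egr2 was at 0.00378 without RUV over all groups and over only the groups compared (each with and without the replicate block), 0.0101 with the striatum term, and -0.0891 to 0.0188 without 1 array. Neat1 was at 0.00242 without the 5 arrays, 0.00516 without RS6 replicate 1 and CC8 replicate 1, and -0.122 to 8.2e-05 without 1 array (8.2e-05 without RS6 replicate 1). Another 124 came past an FDR under 0.01 that had not been passed.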
